A study of Homo sapiens with 6 samples.

Results

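The 130 genes described here are olfactory receptors of families 1 to 4, taken as every probe set whose single gene symbol has the form OR, a family number from 1 to 4, a subfamily letter code and a member number. They are 130 of 23752 genes with 1 symbol on the array, and they fall into 51 subfamilies. Family 1 gave 27 members, family 2 gave 59, family 3 gave 3 and family 4 gave 41. The form of the symbol leaves out pseudogenes, whose symbols end in P, and families with higher numbers. The cells were SW480, an established line from a human colorectal adenocarcinoma, which received, in a transient liposome transfection, either a pTarget plasmid that expresses TUSC3 (3 arrays) or the empty pTarget vector (EV, 3 arrays). TUSC3 is a subunit of the oligosaccharyltransferase, which attaches N-glycans to proteins in the endoplasmic reticulum. Biotin-labelled cRNA was hybridised to Affymetrix arrays, and every value below is a log2 level after RMA, the summary that corrects background and makes the arrays alike in distribution.

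Olfactory receptors are G protein-coupled receptors that detect odorants in the cilia of sensory neurons of the nose, where each neuron chooses a single receptor gene. The receptor signals through the G protein subunit encoded by GNAL and the adenylyl cyclase ADCY3, and cyclic AMP opens a channel built from CNGA2, CNGA4 and CNGB1. The coding part of a receptor gene usually lies in a single exon, the genes lie in clusters of close copies, and most are held silent outside the nose, although transcripts of some have been found in other tissues. The genes therefore serve as a set of mostly silent features, on which the low end of the signal, the spread between replicate arrays and the differences between groups can be read.

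The targeted gene was high where the labels place it. TUSC3 itself read 13.13, 13.11 and 13.09 on the TUSC3 arrays and 4.57, 4.33 and 4.63 on the EV arrays. Of the 12 colorectal epithelial markers, KRT19 (12.54), EPCAM (12.42) and KRT18 (11.08) had the highest mean levels, while the differentiation markers KRT20 (4.24) and CDH17 (3.71) were low. The highest leukocyte, fibroblast and endothelial markers were LYZ (7.14), COL1A1 (6.47) and CLDN5 (5.25), and PTPRC, the general leukocyte marker, stood at 2.60 and DCN, a fibroblast marker, at 2.68. No member of these lists passed the threshold between the groups (limma with Benjamini-Hochberg adjustment). The arrays held 1 signal distribution by construction, with sorted values that differed by at most 0.00179, so a shift of most genes in 1 direction cannot be seen. Only TUSC3 replicate 1 departed from the other arrays, with 22765 distinct values against 9648 on each of them. Why it did was not tested. The labels do not say whether the replicates came from separate cultures or days, so the p-values rest on array-to-array spread alone, which may be technical.

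The receptors lay at the bottom of the signal range. Their mean levels over the 6 arrays had a median of 3.12 with quartiles of 2.80 and 3.71, against a median of 5.53 with quartiles of 3.58 and 8.04 over all genes. Of the 130 receptors, 93 (71.5%) lay below the lower quartile of all genes, 87 lay in the lowest 2 of 10 equal level classes, and 3 lay above the median of all genes. The array minimum was 2.02, and the lowest receptor, OR2T29, had a mean of 2.39. Probe sets differ in how strongly they bind, and no detection call was used, so these levels place the genes in the signal distribution and do not order their transcript amounts. On the arrays, the median of the 130 levels was 3.19, 3.12 and 3.12 with TUSC3 and 3.06, 3.08 and 3.08 with EV. The medians of the TUSC3 arrays were all higher, with means of 3.14 ± 0.039 (SD, n = 3) and 3.08 ± 0.011 (SD, n = 3). The mean of the 130 levels did not separate the groups and ran from 3.36 to 3.38 with TUSC3 and from 3.35 to 3.37 with EV.

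**Figure D1:**
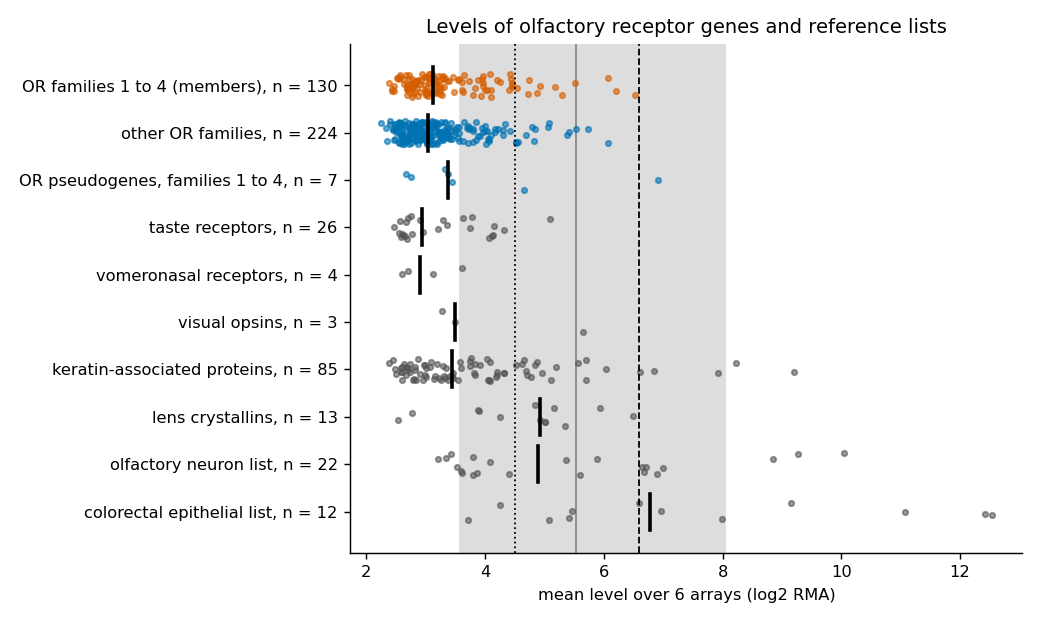
Mean level over 6 arrays (log2 RMA) of each gene, 1 point per gene, in the olfactory receptors of families 1 to 4, in other receptor and tissue-restricted families and in 2 marker lists. Short black bars are medians, the grey band spans the quartiles of all genes (3.58 to 8.04) with their median as a grey line, and the dashed and dotted lines mark the bounds of 6.58 and 4.50 used for a receptor above the floor. The bulk of the receptors lies left of the grey band, as do the other olfactory, taste and vomeronasal receptors.

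Among the families, family 4 had the lowest median, 2.86, and 35 of its 41 members lay below the lower quartile of all genes. Families 1 and 2 had medians of 3.22 and 3.21, and the 3 members of family 3 read 2.94 (OR3A2), 4.44 (OR3A1) and 4.88 (OR3A3). Subfamily OR2T spanned most of the range by itself, from 2.39 for OR2T29 to 6.21 for OR2T12 over 12 members. Subfamily OR4K was narrow, from 2.76 to 3.25 over 7 members. The 224 measured receptors of families 5 and above had a median of 3.04 and ranged from 2.24 (OR6C6) to 6.07 (OR5C1). The 26 taste receptors had a median of 2.93 and the 4 vomeronasal receptors 2.91. The 3 visual opsins lay between 3.27 and 5.66, whereas 85 keratin-associated protein genes, which belong to the hair shaft, had a median of 3.45 and 13 lens crystallins one of 4.93.

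A floor was set from the last 5 of these families, 131 genes in all, as their median plus 3 scaled median absolute deviations, which came to 6.58. No receptor had its lowest array above this bound. The bound lay above the median of all genes, 5.53, so a level below it does not show that a gene is silent. Among the reference genes, the keratin-associated protein genes KRTAP5-7 (9.20), KRTAP2-3 (8.23), KRTAP19-5 (7.93) and KRTAP10-6 (6.85) lay above it. With families 5 and above as the reference, the bound fell to 4.50 and 8 receptors had all 6 arrays above it. These were OR2A1, OR2T12, OR2T10, OR2W3, OR1I1, OR2AG2, OR2T6 and OR3A3. Of the 224 reference receptors, 10 lay above the same bound. With the median of all genes, 5.53, as the bound, OR2A1, OR2T12 and OR2T10 lay above it. How many receptors count as above the floor was thus set by the choice of reference, at 0, 3 or 8.

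The 8 receptors are named because they passed that alternative, after their values were seen. OR2A1 read 6.21, 6.47 and 6.63 on the TUSC3 arrays and 6.64, 6.67 and 6.58 on the EV arrays. TUSC3 replicates 1 and 2 were the lowest of the 6, and the third overlapped the EV arrays. OR2T12 read 6.35, 6.31 and 6.20 with TUSC3 and 6.44, 6.04 and 5.90 with EV, and OR2T10 read 5.92, 5.95 and 6.12 against 6.15, 6.25 and 6.07. The groups overlapped for both. OR2W3 stayed between 5.37 and 5.64 on all arrays. OR1I1 read 5.99 on TUSC3 replicate 1 and between 5.04 and 5.31 on the other arrays, so its mean of 5.30 leans on 1 array. OR2AG2, OR2T6 and OR3A3 had means of 5.18, 4.93 and 4.88, and the groups overlapped for each. Just outside the bound, OR2T3 had a mean of 4.74 and OR4C3 one of 4.72, each with 1 array or more below 4.50.

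At the other end, OR2T29 read 2.38, 2.40 and 2.09 with TUSC3 and 2.23, 2.53 and 2.69 with EV. OR2M2, OR2M7 and OR2C1 had means of 2.43, 2.44 and 2.46. OR2M7 read 2.69, 2.67 and 2.39 with TUSC3 and 2.10, 2.59 and 2.18 with EV. The difference between arrays of 1 group was as large for OR2M7 as that between the groups, which overlapped.

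**Figure D2:**
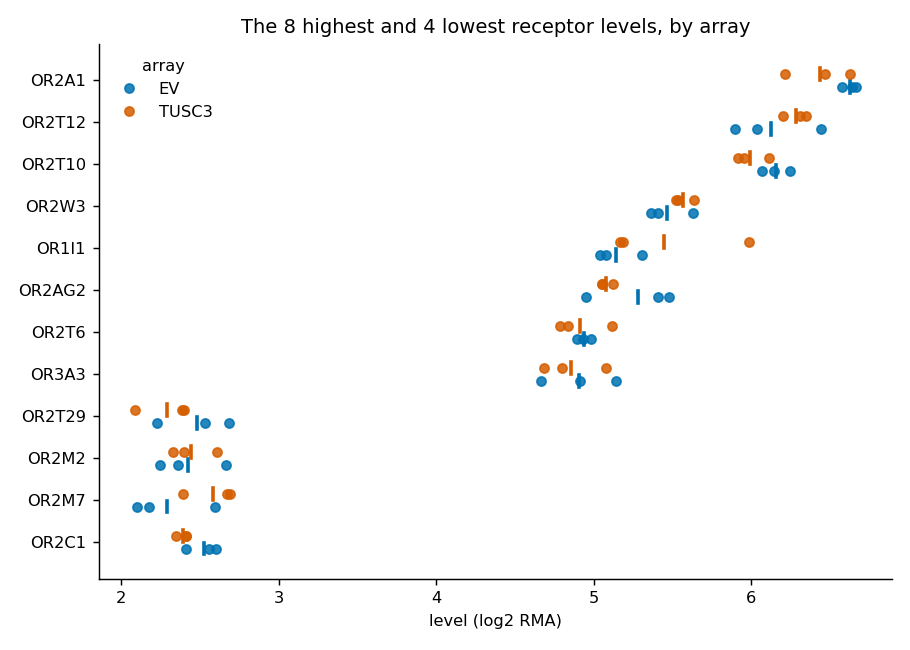
Level (log2 RMA) on each array for the 8 highest and 4 lowest of the 130 receptors, with TUSC3 arrays in orange and EV arrays in blue and short vertical bars at the group means (n = 3 arrays each). OR1I1 has 1 TUSC3 array at 5.99 apart from the rest, and the groups overlap in every row.

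The promoters of 3 of the highest receptors and of the lowest are shown because the members of subfamily OR2T lay at both ends of the range and because the windows show how few CG dinucleotides receptor promoters hold. Each covers the annotated start, which lies near its 3′ end, in RefSeq (GRCh38.p14), 5′ to 3′ on the gene's strand, with CG in capitals. The OR2A1 window is chr7:144312169-144312468 on the plus strand, with 0 CG and 47.7% G or C. The OR2T12 window is chr1:248303375-248303674 on the minus strand, with 1 CG and 31.7% G or C. The OR2T10 window is chr1:248597651-248597950 on the minus strand, with 4 CG and 49.3% G or C. The OR2T29 window is chr1:248562723-248563022 on the minus strand, with 2 CG and 41.0% G or C.
OR2A1: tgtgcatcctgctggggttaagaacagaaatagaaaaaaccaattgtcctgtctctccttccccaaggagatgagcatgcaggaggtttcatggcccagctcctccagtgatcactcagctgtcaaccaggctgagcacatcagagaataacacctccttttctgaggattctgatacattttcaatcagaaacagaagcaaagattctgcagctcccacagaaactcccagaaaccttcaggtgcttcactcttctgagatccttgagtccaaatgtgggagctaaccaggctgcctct
OR2T12: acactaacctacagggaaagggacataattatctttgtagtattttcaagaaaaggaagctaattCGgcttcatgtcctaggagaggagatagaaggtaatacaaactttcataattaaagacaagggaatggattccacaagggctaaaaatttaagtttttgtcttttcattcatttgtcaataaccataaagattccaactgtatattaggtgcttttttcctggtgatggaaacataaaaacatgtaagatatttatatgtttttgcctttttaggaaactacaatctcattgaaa
OR2T10: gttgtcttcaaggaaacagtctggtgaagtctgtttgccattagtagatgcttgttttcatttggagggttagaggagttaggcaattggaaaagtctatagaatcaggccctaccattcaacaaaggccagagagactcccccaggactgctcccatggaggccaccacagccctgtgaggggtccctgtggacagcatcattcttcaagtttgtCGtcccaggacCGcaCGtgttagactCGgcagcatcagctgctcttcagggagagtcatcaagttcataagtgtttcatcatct
OR2T29: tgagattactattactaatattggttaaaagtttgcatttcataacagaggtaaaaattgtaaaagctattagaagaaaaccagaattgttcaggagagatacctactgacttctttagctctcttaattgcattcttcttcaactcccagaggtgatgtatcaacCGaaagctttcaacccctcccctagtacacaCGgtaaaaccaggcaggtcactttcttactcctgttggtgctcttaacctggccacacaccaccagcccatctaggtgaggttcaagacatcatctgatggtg

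A window was found for 98 of the 130 receptors. They held a median of 1 CG dinucleotide, against 14 over the 27305 promoters in the table, and 59 of them (60.2%) held 0 or 1, against 11.5% of all. G and C made up a median of 37.8% of the receptor windows and 58.3% of all windows. On either strand, the TATA-box letters TATAAA were found in 30.6% of receptor windows and 12% of all, and TAATTA, the core that many homeodomain factors bind, in 22.4% and 4.98%. CCCNNGGG, letters that resemble the core bound by EBF factors, was found in 5.1% and 18.6%. A match to letters is not a binding site. Whether these shares follow from the lower G and C content of the receptor windows was not tested. Among the 4 printed windows, OR2A1, the highest receptor, had 0 CG and OR2T29, the lowest, had 2.

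The levels of overlapping genes and of the nearest measured neighbours in RefSeq are given beside those of the receptors. Any unmeasured gene that lies closer was passed over. OR2C1, at 2.46, overlaps ZNF75A, a zinc-finger gene at 7.94. OR2L13, at 3.61, spans a stretch that holds OR2L8 (3.45), OR2AK2 (3.13), OR2L5 (2.96), OR2L2 (3.30) and OR2L3 (4.45), and also the transcribed pseudogene OR2L1P, which at 6.92 was above every one of the 130 receptors. Among measured genes, OR2T12 lies between OR2M4 (3.05) and OR2M7 (2.44), and OR2T10 between OR2T29 (2.39) and OR2T11 (3.23). OR2W3 (5.52) lies beside TRIM58 (5.51), and OR2A1 (6.53) between its close copy OR2A42 (4.41) and ARHGEF5 (7.02). Both OR2A1 and OR2A42 overlap the long noncoding RNA gene OR2A1-AS1, which was not measured. Receptor genes have near-identical copies, and no source used here says how the probe sets separate such copies. Values of OR2A1 and OR2A42, and of any other receptor with such a copy, are therefore uncertain. Which other receptors have one was not checked. Of the 130 receptors, 21 overlap another measured gene and 4 overlap one that is no olfactory receptor or receptor antisense gene by symbol.

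Markers of olfactory sensory neurons and genes of their signalling were read together from a list of 22, all measured. Their median level was 4.88, and 10 of the 22 lay above the median of all genes. Genes of the list that many tissues use were among the high ones, with the demethylase KDM1A at 10.05, the adaptor LDB1 at 9.27 and ADCY3 at 8.86. GNAL stood at 6.89 and OMP, the marker of mature olfactory neurons, at 6.67. The subunits of the cyclic AMP-gated channel had lower levels, with CNGA2 at 3.79, CNGA4 at 4.08 and CNGB1 at 3.87, while the chloride channel gene ANO2 stood at 5.37. Of the genes that help carry receptors to the cell surface, RTP1 and RTP2 stood at 3.35 and 3.43 and REEP1 at 6.64, close to OMP. OMP read 6.64, 6.61 and 6.81 with TUSC3 and 6.54, 6.76 and 6.67 with EV, and the groups overlapped. Its mean level was at the 61.0 percentile of all genes, and those of CNGA2, CNGA4 and CNGB1 at 28.5, 32.9 and 29.6. Between the groups, 0 of the 22 passed after adjustment and 2 had an unadjusted p under 0.05 (limma), beside 6.71% of all genes. These were GNAL, which differed by -0.21, and GAP43, a growth-associated protein gene, which differed by -0.34 (adjusted p = 0.731 for both in limma). ANO2, which amplifies the odour signal, differed by 0.29, and its interval, -0.04 to 0.62, held 0. Without EV replicate 1 the difference was 0.19 and without EV replicate 3 it was 0.45.

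By the medians, replicate arrays spread more in the receptors than in other genes of the same level. The residual SD about the group means had a median of 0.192 over the 130 receptors, with quartiles of 0.134 and 0.260, against 0.120 over all genes. Over the 4502 other genes within the quartiles of receptor level the median was 0.150. The value over all 130 receptors, some of them outside those quartiles, was 1.28 times as large. Without each array in turn the ratio stayed between 1.20 and 1.31. Set against the same of 10 level classes, the median ratio of a receptor's spread to the class median was 1.28. The excess was uneven over the classes. In the lowest, the median was 0.145 for 43 receptors and 0.121 for the other genes, with 24 of the 43 above. The medians were 0.275 and 0.174 in the class from 3.89 to 4.62. They were 0.179 and 0.170 from 4.62 to 5.53, and 0.152 and 0.150 from 5.53 to 6.58. By these classes, 87 of 130 receptors (66.9%) lay above the median spread of their class. The share was 62.9% for the 224 receptors of families 5 and above, 61.5% for the taste receptors, 58.8% for the keratin-associated protein genes and 53.8% for the lens crystallins. In the smallest sets it was 71.4% (5 of 7) for olfactory receptor pseudogenes of families 1 to 4, 75% (3 of 4) for vomeronasal receptors and 66.7% (2 of 3) for visual opsins. These shares are descriptions without a test, since genes of 1 array set are not independent. Within the groups, the median SD of a receptor was 0.167 over the TUSC3 arrays and 0.178 over the EV arrays.

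**Figure D3:**
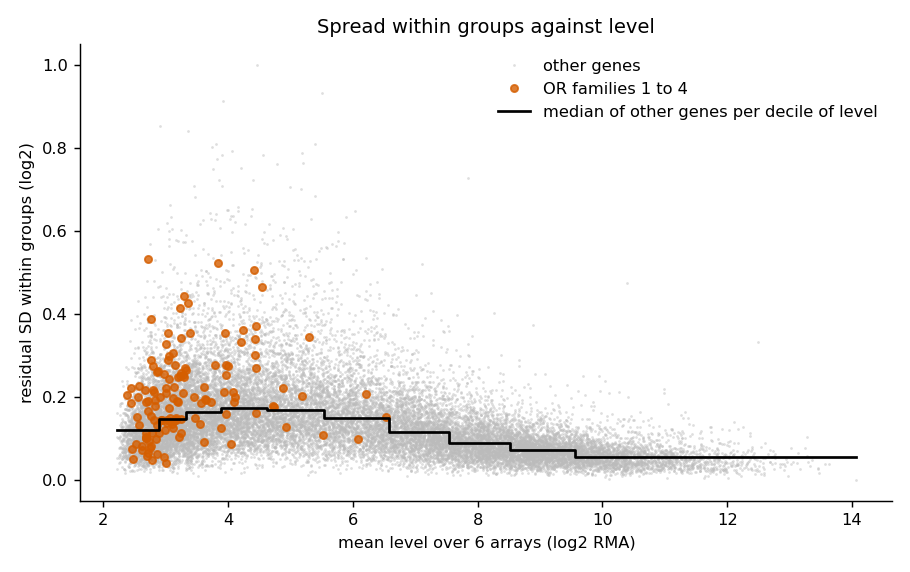
Residual SD within groups (log2, over 6 arrays about the 2 group means) against mean level (log2 RMA), 1 point per gene, with the 130 receptors in orange, the other genes in grey and the median of the other genes in each of 10 level classes as a black line. In the class from 2.90 to 3.33, the median is 0.204 for 44 receptors and 0.146 for the others. In the class from 4.62 to 5.53, it is 0.179 for 7 receptors and 0.170 for the others.

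For a typical receptor, the highest and lowest of the 6 arrays were 0.51 apart, a signal ratio of 1.42, and the range ran from 0.10 to 1.59. The steadiest receptors were OR4K14, with a residual SD of 0.0409, and OR4A15, with 0.0488. The widest was OR4C46, with a residual SD of 0.533. It read 3.88, 2.42 and 2.85 with TUSC3 and 2.37, 2.46 and 2.28 with EV. TUSC3 replicate 1 stood apart, and replicate 2 lay among the EV arrays. OR1N2, next in spread at 0.523, read 3.25, 3.60 and 4.31 with TUSC3 and 4.38, 3.39 and 4.10 with EV. OR1L8 had 0.464 and read 4.94, 4.69 and 4.27 with TUSC3 and 4.10, 5.09 and 4.14 with EV. OR1N2 and OR1L8 overlap in RefSeq, and they ran opposite ways, since the 3 arrays on which OR1L8 was highest, TUSC3 replicates 1 and 2 and EV replicate 2, were the 3 on which OR1N2 was lowest. OR2A42 had a spread of 0.507, with EV replicate 3 at 5.24 and the other arrays between 3.98 and 4.70. No array held the extremes by itself. Each array had the highest of the 6 values for 18 to 29 receptors and the lowest for 18 to 23, with the most highest values, 29, on EV replicate 2.

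No receptor differed between TUSC3 and EV after adjustment. Of 130 receptors 0 passed at an adjusted p of 0.05 in the limma fit over all 23752 genes, in which 0.00421% of genes, TUSC3 alone, did, and the smallest adjusted p of a receptor was 0.731. The differences centred on 0, with a median of -0.00095, 63 receptors higher and 67 lower, and quartiles of -0.11 and 0.12. Over all genes the median was 0.0013 with quartiles of -0.08 and 0.08. At an unadjusted p under 0.05 there were 9 receptors (6.92%), beside 6.71% of all genes. These were 5 higher receptors (3.85%), beside 3.41% of all genes, and 4 lower (3.08%), beside 3.3%. The count of 9 rose to 15 (11.5%) without TUSC3 replicate 3, beside 7.35% of all genes. It rose to 17 (13.1%) without EV replicate 1 and to 16 (12.3%) without EV replicate 2, beside 6.3% and 6.31%. The share of all genes stayed between 5.87% and 7.35% without any 1 array. The groups did not overlap for 11 receptors (8.46%), 5 of them higher and 6 lower, beside 12.2% of all genes (6.17% higher and 6.08% lower). Among other genes within the quartiles of receptor level, the share without overlap was 9.68%. Shares near those of all genes, as with all 6 arrays, are no result about the receptors. The higher shares without those single arrays were not tested.

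The differences were about as large as the spread within groups gives. The root mean square of the 130 differences was 0.186, and the value implied by the residual SDs of the same genes for means of 3 against 3 arrays was 0.187. Among the 224 receptors of families 5 and above the same pair was 0.185 and 0.188. Among other genes within the quartiles of receptor level it was 0.153 and 0.154. Over all genes other than TUSC3 it was 0.142 and 0.134. A difference of more than 0.32 was found for 9 receptors (6.92%), beside 3.46% of all genes. It was found for 4.18% of other genes within the quartiles of receptor level. Of the 9 receptors, only OR2A2 (3.29) and OR1B1 (3.24) lay within those quartiles, so the last share does not match them in level. Of the 9, 3 were higher, beside 1.65% of all genes, and 6 lower, beside 1.81%. The 95% interval of a receptor's difference had a median half-width of 0.31 against 0.22 over all genes. It left out a change of 1.5-fold or more for 98 receptors (75.4%), against 91.1% of all genes, and one of 2-fold or more for 96.9%, against 99.1%. These are bounds on array signal, and for genes at the floor they do not bound a change in transcript.

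**Figure D4:**
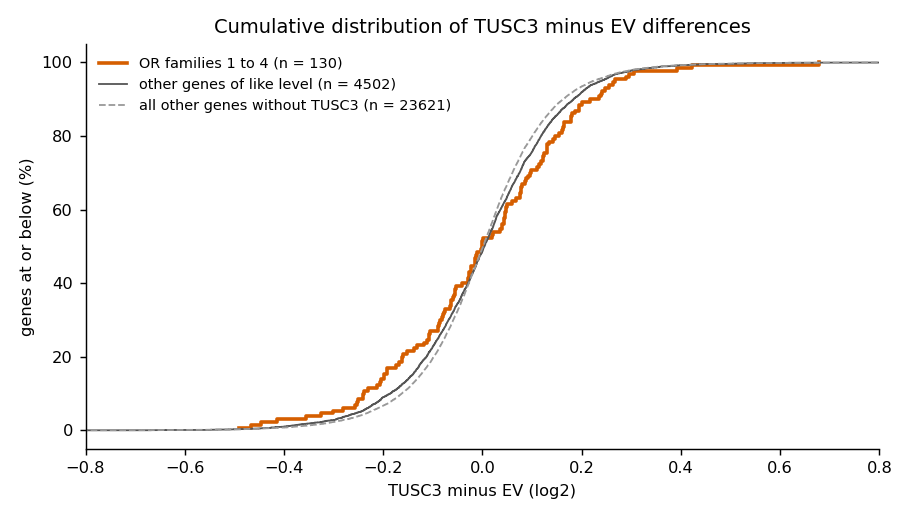
Cumulative percentage of genes at or below each TUSC3 minus EV difference (log2), for the 130 receptors in orange, the 4502 other genes within the quartiles of receptor level as a solid grey line and all other genes without TUSC3 as a dashed line. The lines cross near 0, and the receptors have the widest spread, with quartiles of -0.11 and 0.12.

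The receptors with the smallest p among those higher were OR4F5, OR2T5, OR1A2, OR4N4, OR4K13 and OR4C6. OR4F5 read 3.05, 3.05 and 2.91 with TUSC3 and 2.69, 2.70 and 2.76 with EV, and the groups did not overlap. Its difference was 0.29 (SE 0.071, limma adjusted p = 0.731), at a mean level of 2.86, the 9.16 percentile of all genes. OR2T5 read 2.72, 3.20 and 2.82 with TUSC3 and 2.56, 2.60 and 2.41 with EV, which differ by 0.39 (95% interval 0.08 to 0.70) and by 0.25 without TUSC3 replicate 2. OR1A2, a receptor for citronella-like odorants, read 4.06, 3.85 and 4.12 with TUSC3 and 3.79, 3.83 and 3.62 with EV, a difference of 0.26. OR4N4, OR4K13 and OR4C6 differed by 0.20, 0.22 and 0.24, and the groups overlapped for OR4C6. Without EV replicate 3 the difference of OR4K13 was 0.13. None passed after adjustment.

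Those lower were OR1K1, OR1D2, OR1N1, OR2AT4, OR1Q1 and OR2G6. OR1K1 had the most negative difference of all receptors and read 3.35, 3.59 and 3.52 with TUSC3 and 4.11, 4.11 and 3.70 with EV, with no overlap. The difference was -0.49, and its 95% interval ran from -0.80 to -0.18 (limma adjusted p = 0.731). OR1D2, a receptor also described in human sperm, read 2.61, 2.75 and 2.35 with TUSC3 and 2.94, 2.84 and 3.28 with EV, a difference of -0.45. OR2AT4, which responds to a synthetic sandalwood odorant and has been studied in skin keratinocytes, read 3.36, 3.92 and 3.93 with TUSC3 and 4.37, 4.08 and 4.16 with EV, a difference of -0.47 that leaned on TUSC3 replicate 1. Without that array it was -0.28. OR1N1 differed by -0.23 without overlap, and OR1Q1 and OR2G6 by -0.24 and -0.30 with overlap. The value of OR1Q1 was -0.15 without EV replicate 3, and that of OR2G6 was -0.16 without TUSC3 replicate 2. The largest difference of all, 0.68 for OR4C46, had an interval of -0.11 to 1.46 and fell to 0.26 without TUSC3 replicate 1. Of the 9 receptors that differed by over 0.32, 4 were among those with an unadjusted p under 0.05 in limma, OR1K1, OR2AT4, OR1D2 and OR2T5. Of the other 5, OR4C46, OR2A2 and OR1B1 had residual SDs of 0.533, 0.443 and 0.343.

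**Figure D5:**
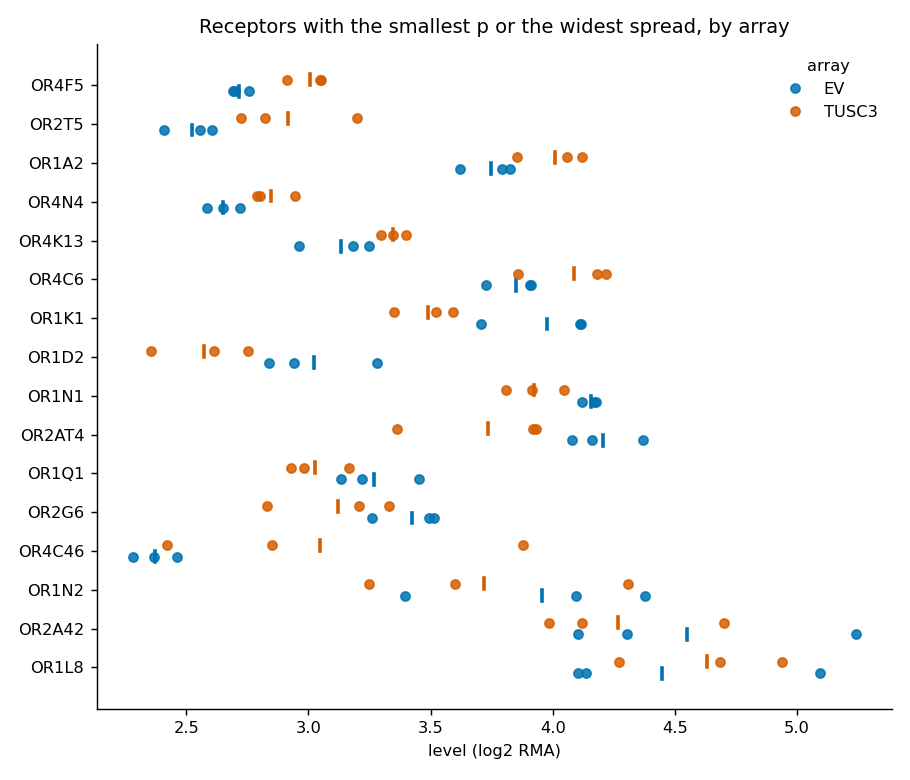
Level (log2 RMA) on each array for the 6 receptors per direction with the smallest unadjusted p and the 4 with the widest spread, with TUSC3 arrays in orange, EV arrays in blue and short vertical bars at the group means (n = 3 arrays each). The groups are apart by 0.49 on average in OR1K1 and by 0.29 in OR4F5, while in the last 4 rows single arrays lie far from the rest of their group.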

How the data were processed

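Expression was measured on 6 arrays, 3 per group, and precision is limited by that number. The authors processed them with RMA, per the submitters' processing notes, and deposited 1 log2 value per probe set and array. No source used here names the RMA version, the array type or how probe sets were defined. Of 25088 probe sets, 23752 have exactly 1 symbol in the platform annotation, 0 have several and 1336 are unnamed here. All 130 receptors matched RefSeq by gene ID, and 98 have a promoter.

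Values were fitted as deposited, without a filter on dim probe sets, by two-sided tests from lmFit and eBayes (limma 3.58.1, R 4.3.3) over the genes with 1 symbol, and p-values were adjusted by Benjamini-Hochberg over all of them. The code was checked on simulated data with known changes, and no measure of power was taken from that check. With 3 arrays a group, the smallest p of an exact permutation test is 0.1. Genes were named by a fixed rule: the 6 smallest p per direction, the 4 widest spreads, the 4 lowest levels, the most extreme differences, receptors above the floor, 10 olfactory neuron genes, 3 epithelial markers, TUSC3 and MAGT1. The part of the rule on near-identical proteins was not applied, because no protein sequences were used here. Other names were chosen after their values were seen. Members, lists and reference families were chosen with earlier results of these data known. Alternatives changed the normalization, filter, variance prior, array weights, pairing, arrays and floor.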

Additional observations from a re-analysis of the deposited data

How the results depend on the processing

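In all 13 alternatives for the comparison of the groups, 0 receptors passed after adjustment, with a smallest adjusted p between 0.521 and 0.838 (limma). Over all genes 1 passed in each except the trended and robust prior, which gave 2, neither of them a receptor. Without the dimmest 30% of probe sets, 3 of the 30 receptors left had an unadjusted p under 0.05 (10%, beside 7.48% of all genes). The count was 8 to 17 (6.15% to 13.1%) without 1 array, beside 5.87% to 7.35% of all genes. With the replicate block it was 11 (8.46%), beside 6.33%. The same-numbered arrays did not deviate together (correlations -0.0141, 0.0435 and -0.0113), so the numbers were not taken as pairs, and the block changed no call. The median receptor level was 3.11 to 3.13 and the median residual SD 0.176 to 0.191 without 1 array, and normalizing again left both in place. The floor count was 3 with the median of all genes and 8 with families 5 and above as the reference, against 0 with the reference families, and it was 0 under the 8 other settings of normalization and arrays, with a 99th percentile and with the mean of the arrays. Of the values of single receptors, 242 kept their direction and 4 changed sign without passing. For the other named genes these counts were 179 and 13. MAGT1 (0.03), the paralogue of TUSC3, was among those that changed sign. No detection call was used, so signal over background limits what a level at the floor can show.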
